A study of Mus musculus with 8 samples.

Results

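The genes described here are those of branched-chain amino acid uptake and breakdown, 32 of the 23360 gene symbols in the files. They were selected on pathway membership: transporters that carry leucine, isoleucine and valine into the cell, the enzymes of each breakdown step and the regulators of the committed step. The list was drawn up with the difference between the genotypes in these data already known, so its fold changes and its counts of passing genes are a description and are no independent support for a change in the pathway. All 32 had exactly 1 row in each file, and all 32 passed the filter on low values, a scaled read count of at least 10 in at least 4 libraries. RNA of the inguinal fat pad, a subcutaneous white depot, was sequenced in 8 libraries from mice of 6 weeks. All 8 carried floxed Lsd1. The 4 controls are described by the floxed alleles alone, and the 4 knockouts came from a cross to the Adipoq-Cre transgene, which is driven by the adiponectin promoter and is active in adipocytes. No group with Adipoq-Cre and without the floxed alleles is among the samples, so an effect of the transgene and an effect of the deletion cannot be told apart. The labels give no sex, and they do not say whether each library came from its own mouse, so p-values measure the spread between these libraries, and part of it may be technical. Depth was 25671837 to 32442724 recovered reads a library.

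Leucine, isoleucine and valine are essential amino acids that share the first steps of their breakdown. A branched-chain aminotransferase moves the amino group to 2-oxoglutarate, and the mitochondrial branched-chain ketoacid dehydrogenase complex then decarboxylates the ketoacid irreversibly, under the control of a kinase that switches it off and a phosphatase that switches it on. After that the 3 routes part: leucine ends as acetyl-CoA and acetoacetate, valine as propionyl-CoA, and isoleucine as acetyl-CoA and propionyl-CoA. Adipocytes express these enzymes strongly, raise the flux as they differentiate, and use the carbon for fatty acid synthesis.

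The labels were first checked on the targeted gene. Kdm1a, which encodes the histone demethylase Lsd1, had scaled read counts of 699, 685, 799 and 735 in controls 1 to 4 and 566, 578, 547 and 581 in knockouts 1 to 4. Every knockout lay below every control, by 0.36 on the log2 scale in the mean (SE 0.075, limma adjusted p = 0.0498; exact two-sided permutation p = 0.0286 over 70 assignments, the smallest that 4 against 4 allow). Fat pads also hold cells in which Adipoq-Cre does not act, and the adjusted p was above the threshold of 0.05 without any one of the libraries (0.0579 to 0.152). Several marker lists moved with the groups. The summed scaled read count of 14 general adipocyte genes (Fabp4, Lpl, Gpd1 and Cd36 the highest) was 480283 to 594829 in the controls and 388896 to 435090 in the knockouts, without overlap. The sum of 17 skeletal muscle genes, led by Acta1, was 10877 to 43946 in the controls but 222467, 211429, 16068 and 130316 in knockouts 1 to 4, and all 17 were higher in the mean, none past the threshold. The endothelial sum did not overlap either (controls 15531 to 17770, knockouts 13311 to 15401). The part of these lists in the results below was not tested beyond the covariate fits given with them. Macrophage, B cell, brown adipocyte and mammary lists and 20 respiratory chain genes overlapped between the groups. Wap was at 0 in all 8 libraries, Adipoq at 25163 or more in every library and Ucp1, the brown fat uncoupler, from 167 to 4732. Of the mammary list, Krt5 (237 and 82.2) and Krt14 (137 and 39.7) were found in knockouts 1 and 2, against 0.98 at most elsewhere. The mammary sum was 775 and 412 there, 230 and 277 in knockouts 3 and 4, and 239 to 314 in the controls.

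The promoters of the members that were lower past the threshold, Hibch, Hibadh, Aldh6a1 and Hsd17b10, are shown because they are the members for which a shared element would be looked for first. Each line is the RefSeq window of GRCm38.p6, in the direction of the gene, from 250 bases before the start of the transcript to 50 bases after it, 300 bases in all. Capitals mark the GC box, GGGCGG, the binding sequence of Sp-family factors, on either strand (CCGCCC on the other).
Hibch (chr1:52844788-52845087, plus strand): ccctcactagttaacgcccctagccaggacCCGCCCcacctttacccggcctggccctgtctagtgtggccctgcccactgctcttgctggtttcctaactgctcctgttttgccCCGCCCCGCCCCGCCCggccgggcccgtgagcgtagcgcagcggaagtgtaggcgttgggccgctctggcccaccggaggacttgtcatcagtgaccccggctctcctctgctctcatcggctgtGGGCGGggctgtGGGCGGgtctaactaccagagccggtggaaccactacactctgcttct
Hibadh (chr6:52640251-52640550, minus strand): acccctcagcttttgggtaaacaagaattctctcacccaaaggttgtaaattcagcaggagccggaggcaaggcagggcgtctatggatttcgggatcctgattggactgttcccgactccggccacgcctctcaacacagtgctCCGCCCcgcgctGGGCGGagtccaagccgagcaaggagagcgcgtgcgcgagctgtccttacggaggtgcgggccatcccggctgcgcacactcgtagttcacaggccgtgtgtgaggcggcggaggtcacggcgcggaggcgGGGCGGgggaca
Aldh6a1 (chr12:84450975-84451274, minus strand): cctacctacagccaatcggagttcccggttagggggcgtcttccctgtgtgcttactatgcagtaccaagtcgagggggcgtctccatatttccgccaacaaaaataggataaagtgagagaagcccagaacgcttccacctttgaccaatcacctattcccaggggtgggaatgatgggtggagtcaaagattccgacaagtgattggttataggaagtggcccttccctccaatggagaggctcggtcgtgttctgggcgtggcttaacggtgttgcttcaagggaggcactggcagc
Hsd17b10 (chrX:152001646-152001945, plus strand): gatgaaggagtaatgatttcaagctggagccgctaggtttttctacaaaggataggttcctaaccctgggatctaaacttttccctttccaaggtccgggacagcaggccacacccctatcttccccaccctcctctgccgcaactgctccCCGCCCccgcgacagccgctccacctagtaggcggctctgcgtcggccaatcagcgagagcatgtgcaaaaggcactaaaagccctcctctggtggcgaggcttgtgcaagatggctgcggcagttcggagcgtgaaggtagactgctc

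The windows did not look alike. Hibch held 6 GC boxes and Hibadh 3, against 1 in Hsd17b10 and 0 in Aldh6a1, and G and C made up 66.3%, 64.0%, 57.7% and 53.7% of the bases of Hibch, Hibadh, Hsd17b10 and Aldh6a1. RefSeq windows were given for 27 of the 32 members; Slc7a5, Dbt, Abat, Mut and Acat1 had none. A GC box was found in 17 of the 27 (63.0%), against 65.9% of the 11183 tested genes with a window and 38.2% of all 27025. The ERR response element, TCAAGGTCA, bound by estrogen-related receptors that act on mitochondrial genes, was found in 0 of the 27, against 0.304% of tested genes. TGATGCAA, the CCAAT enhancer ATF response element of the amino acid response, was found only in Echs1 among the 27, against 0.769% of tested genes. Both strands were searched, none of these motifs contains another, and neither window of Bcat1 held any of them. A match or its absence describes these letters in this window only.

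Per kilobase of transcript, the members spanned a wide range in control fat. Echs1, the enoyl-CoA hydratase of the valine and isoleucine routes and of fatty acid oxidation, stood at 3470.2 ± 456 scaled reads per kilobase (SD, n = 4). Below it came Aldh6a1, the valine-specific dehydrogenase, at 2671 ± 228 and Bcat2, the mitochondrial aminotransferase, at 2568 ± 153, whose spreads overlap. Bckdha at 2289.9 ± 428 and Hibadh at 2177 ± 273 did not differ beyond their spread either. The other 21 lay between these and the scarcest, from 1775 ± 363 for Dld to 184 ± 20.2 for Mmachc. At the low end lay Slc7a5 at 80.8 ± 15.5, Mmaa at 74.7 ± 5.64, Ppm1k at 63.2 ± 4.94, Slc7a8 at 61.5 ± 5.10, Bcat1 at 44.7 ± 16.8 and Abat at 23.6 ± 7.42. Of the aminotransferases the mitochondrial Bcat2 was thus among the abundant members and the cytosolic Bcat1 among the scarce ones, and of the transporter chains the heavy chain Slc3a2, at 1260.1 ± 54.6, stood far above both light chains. The 2 members that were higher past the threshold in the knockouts were the 2 scarcest.

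**Figure D1:**
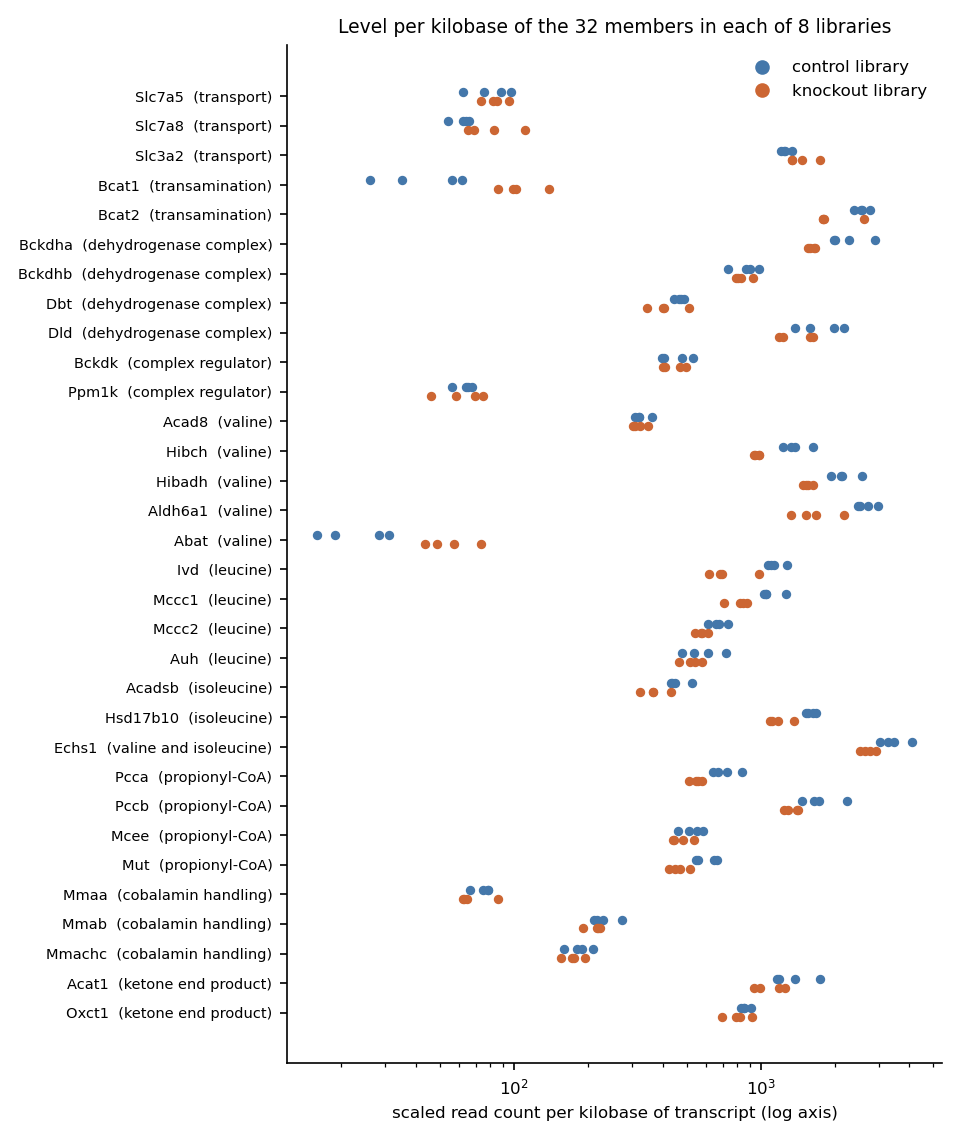
Scaled read count per kilobase of transcript (x axis, logarithmic) of the 32 members in each of the 8 libraries, blue for controls and orange for knockouts, 1 row a gene with its role in brackets. Control means run from 23.6 for Abat to 3470.2 for Echs1, and Abat and Bcat1, at the low end, are the rows in which every orange point lies clearly to the right.

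Across the list, 27 of the 32 members had a lower mean log2 level in the knockouts, and the median log2 fold change was -0.20, against 0.02 over all 14591 tested genes, of which 45.4% were lower. In the limma fit over all tested genes 4 members passed an adjusted p of 0.05 as lower, where 0.356% of all tested genes did, and 2 as higher, where 1.28% did. The groups did not overlap, with every knockout below every control, for 12 members (3.58% of tested genes), and in the other direction for 2 (5.06%). Because the list was drawn up with this contrast known, nothing is read from the distance between these shares. Summed over all 32, the members took 5084, 5881, 4915 and 4972 scaled reads per 1000000 in controls 1 to 4 and 4434, 4142, 4069 and 3899 in knockouts 1 to 4. The sum was thus below every control in every knockout, 20.7% lower in the mean (5213 ± 451 against 4136 ± 223, SD, n = 4 each).

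The adjusted p-values were close to the threshold, and leaving out 1 library moved many of them across it. Without control 1, knockout 2 or knockout 4 none of the members passed in the limma fit. At an unadjusted p under 0.05, 14, 14 and 13 members were lower in these fits. Of the 14591 tested genes, 1669, 1491 and 1613 met that cut in either direction. The genes passing over the whole table were then 87 to 135 in place of 239. Leaving out each library in turn, Hibch stayed past the threshold in 4 of 8 fits (adjusted p = 0.022 to 0.0882), Hibadh in 3 (0.0291 to 0.133), Bcat1 (0.0399 to 0.136) and Abat (0.022 to 0.114) in 2 each, and Aldh6a1 (0.00869 to 0.171) and Hsd17b10 (0.00732 to 0.144) in 1 each. The fold changes stayed of like size over the 8 fits, from -0.58 to -0.44 for Hibch, -0.55 to -0.41 for Hibadh, -0.50 to -0.39 for Hsd17b10, -0.83 to -0.59 for Aldh6a1, 1.08 to 1.48 for Bcat1 and 1.09 to 1.41 for Abat. With the skeletal muscle score as a covariate Aldh6a1 (-0.93) and Bcat1 (1.66) passed, and Hibch (-0.51), Hibadh (-0.44), Hsd17b10 (-0.30) and Abat (1.10) did not. On recovered reads edgeR called 1 member lower and 1 higher, among 218 genes called of 14591. DESeq2 called 10 lower and 2 higher, among 776 genes called, where the main fit called 239.

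Like the members, the adipocyte markers were lower in the knockouts, their sum by 21.8%. The 14 markers did not move alike. In the mean 12 were lower, 5 of them without overlap, and only Cidec passed (log2 fold change -1.01, limma adjusted p = 0.00179). Of all tested genes 45.4% were lower, 3.58% were lower without overlap and 0.356% passed as lower. Gpd1 (0.02) and Slc2a4 (0.15) were higher in the mean, and the part of single markers in the sum was not tested. Expressed as a share of the general adipocyte sum, the members came to 15.2%, 14.1%, 14.3% and 14.1% in controls 1 to 4 and 16.0%, 14.9%, 13.4% and 13.9% in knockouts 1 to 4, which overlap (14.4 ± 0.520 against 14.5 ± 1.12, SD, n = 4 each; computed after the values were seen). The valine enzymes alone were 3.23 ± 0.0734% of that sum in controls and 2.86 ± 0.411% in knockouts, again with overlap. Knockout 1, at 3.39%, was above every control. Knockouts 2, 3 and 4, at 2.87%, 2.40% and 2.76%, were below the lowest control, 3.17%. In whole tissue, fewer adipocytes and less RNA of these genes per adipocyte cannot be told apart. With the general adipocyte score as a covariate 0 of the 14591 genes passed (2017 at an unadjusted p under 0.05). The score itself separated the genotypes, at 14.26 to 14.55 in the controls and 14.01 to 14.12 in the knockouts. Genotype and adipocyte level are therefore hard to tell apart in this fit, and nothing is concluded from the loss of calls. In that fit the log2 fold changes of Hibch, Hibadh and Hsd17b10 were -0.21, -0.14 and -0.23, less than the -0.52, -0.49 and -0.43 without the covariate. That of Aldh6a1 was -0.70, against -0.69 without it, and those of Abat and Bcat1 were 0.99 and 0.82, against 1.26 and 1.31.

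**Figure D2:**
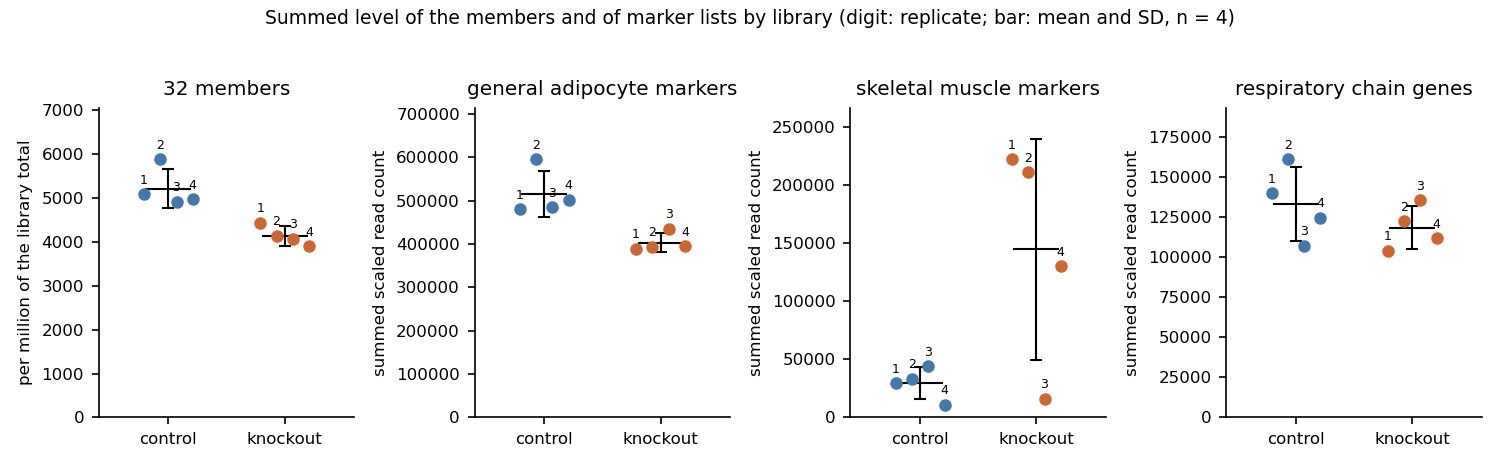
Summed level of the 32 members in scaled reads per 1000000 of its library, and summed scaled read counts of 14 general adipocyte markers, 17 skeletal muscle markers and 20 respiratory chain genes, by genotype; points are libraries numbered by replicate, bars are the mean and SD (n = 4). Members and adipocyte markers separate the groups, muscle markers are high in knockouts 1, 2 and 4 (222467, 211429 and 130316) and low in knockout 3 (16068), and respiratory chain genes overlap.

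Uptake was the only step at which every member was higher in the mean in the knockouts, though none of the 3 transporters passed the test. Slc3a2 is the heavy chain that brings the light chains to the membrane, and Slc7a5 and Slc7a8 are light chains that exchange branched-chain and aromatic amino acids. Slc3a2 had scaled read counts of 2204, 2435, 2270.4 and 2259 in the controls and 2426, 2677, 3145 and 2428 in the knockouts (log2 fold change 0.21, SE 0.093, limma adjusted p = 0.335). The knockouts sat higher, with control 2 reaching into their range. Slc7a8 was 222 to 269 in the controls and 453, 281, 266 and 339.5 in the knockouts (log2 fold change 0.39, 95% interval 0.02 to 0.75, adjusted p = 0.315), and its highest value was that of knockout 1. Slc7a5 stood at 342, 218, 313 and 265 against 337, 259.6, 290.2 and 299, groups that overlap fully (0.07, 95% interval -0.26 to 0.40). Summed, the transporters took 198 ± 5.67 reads per 1000000 in controls and 233 ± 17.2 in knockouts, without overlap, a sum that is mostly Slc3a2.

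Of the aminotransferases 1 rose, and the other had a lower mean that did not pass. Bcat1, the cytosolic form (chr6:144993835-145076157, minus strand), rose, with scaled read counts of 89.8, 66.8, 144 and 157 in controls 1 to 4 and 219.8, 261, 355 and 254 in knockouts 1 to 4. Every knockout exceeded every control, and the mean was 2.38 times as high (log2 fold change 1.31, SE 0.267, limma adjusted p = 0.0458). Within the controls, replicates 1 and 2 were the low ones. They were also the ones with the lowest sum of B cell markers, 8297 and 6382, against 14289 and 12019 in controls 3 and 4 and 10457 to 14659 in the knockouts. Their brown adipocyte sums, 11538 and 12360, were above the 4708 and 6276 of controls 3 and 4, with 6731 to 14784 in the knockouts. With the B cell score as a covariate the fold change of Bcat1 was 0.94 on the log2 scale (adjusted p = 0.0414), and without controls 1 and 2 it was 0.83 (0.155). With the brown adipocyte score it was 1.30 (0.0441). Bcat1 did not pass with the mammary score, at 1.378 (0.0776), or with the respiratory chain score, at 1.203 (0.0787). In edgeR on recovered reads it did not pass either, at 1.246 (0.0504). Knockout 3, in which muscle markers were low, had the highest value, 355. The part of muscle in the order of the libraries was not tested.

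Bcat2, the mitochondrial form that does most of the transamination in adipocytes (chr7:45568967-45589710, plus strand), did not pass. Its scaled read counts were 4233, 4516, 4893 and 4563 in the controls and 4639.8, 3187, 3169 and 3164 in the knockouts. Knockouts 2, 3 and 4 lie close together and well below every control, whereas knockout 1 is as high as the controls. The log2 fold change was -0.38 (SE 0.128, adjusted p = 0.207), and without knockout 1 it was -0.52 (adjusted p = 0.0155). Without any other library the adjusted p was 0.255 to 0.470. Per kilobase, Bcat1 was 1.47%, 1.03%, 2.04% and 2.38% of Bcat2 in the controls and 3.28%, 5.68%, 7.76% and 5.57% in the knockouts. The share was higher in every knockout than in any control, and Bcat2 remained the far more abundant form in all 8 libraries. On the other strand, 622 of the 3900 exonic bases of Bcat2 overlap 0610005C13Rik, which had 7.34 scaled reads at most. Exons of Bcat1, Hibadh, Mccc1, Echs1, Pcca, Mut and Oxct1 also overlap other genes, over 94 to 467 bases, and reads of such pairs cannot be told apart.

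**Figure D3:**
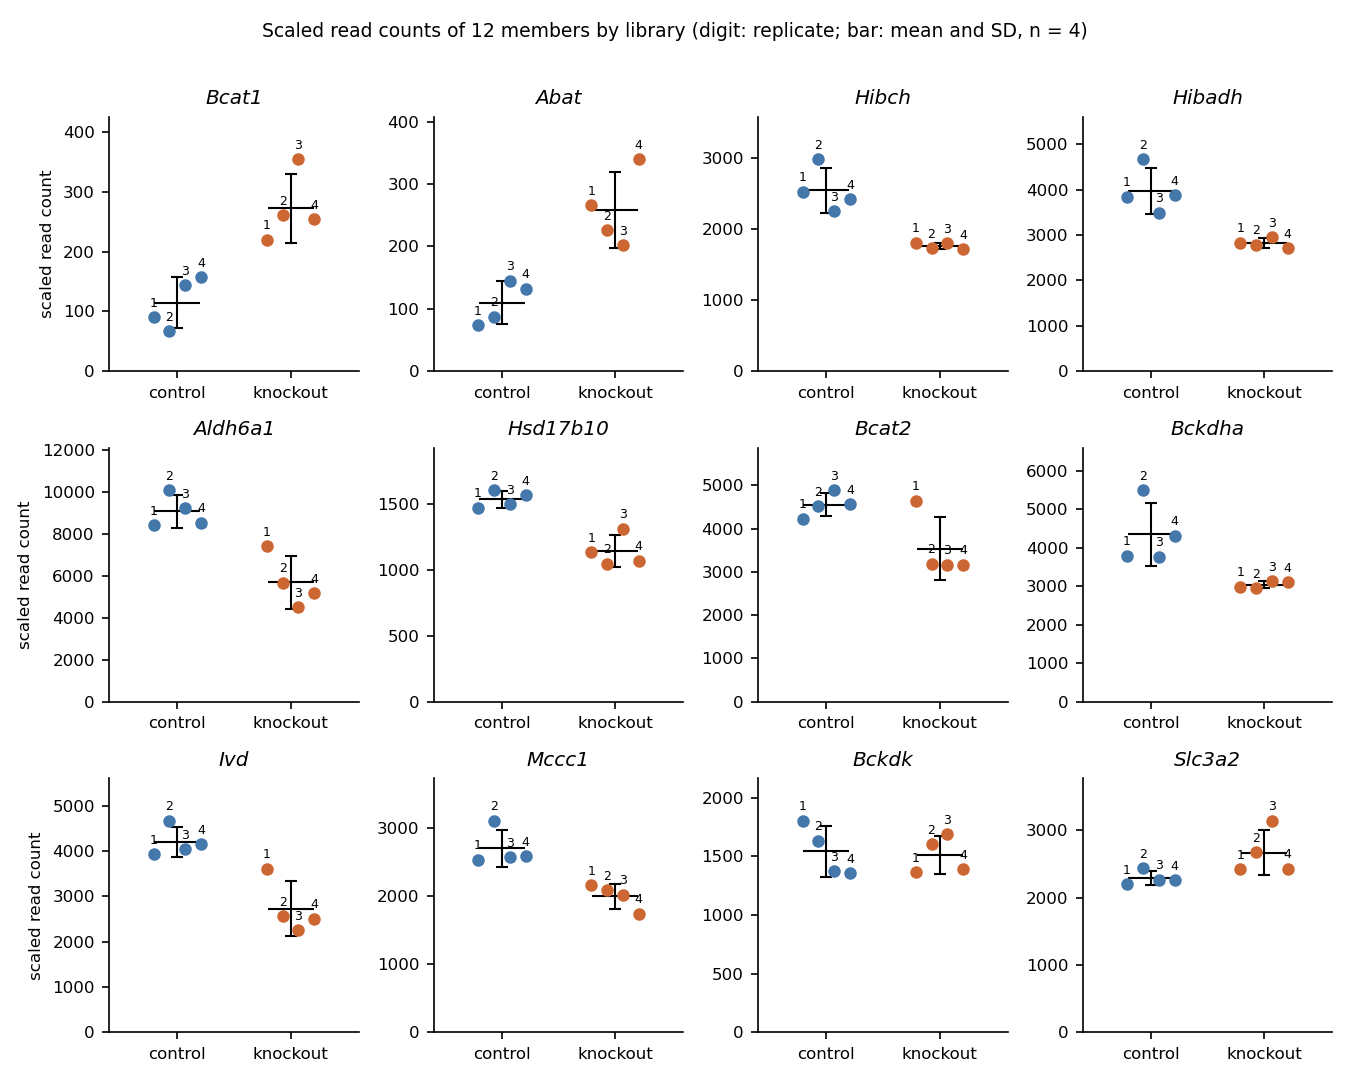
Scaled read counts (y axis, from 0) of 12 members by genotype; points are libraries numbered by replicate, bars are the mean and SD (n = 4). Bcat1 and Abat are higher in every knockout than in any control, Hibch, Hibadh, Aldh6a1, Hsd17b10, Bckdha, Ivd and Mccc1 are lower, Bcat2 is low in knockouts 2 to 4 and at control level in knockout 1, and Bckdk and Slc3a2 overlap.

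Of the dehydrogenase complex, 4 subunit genes were all lower in the mean and none passed. Bckdha, the alpha subunit of the decarboxylase, whose serines the kinase phosphorylates (chr7:25629852-25658782, minus strand), had scaled read counts of 3795, 5507, 3774 and 4318 in the controls and 2992, 2947, 3138 and 3111 in the knockouts. The knockouts were tightly grouped and all below the lowest control (log2 fold change -0.50, SE 0.118, limma adjusted p = 0.0846), and control 2 was the highest of all. Its partner Bckdhb, the beta subunit, was 1025, 1379, 1217 and 1263 against 1104, 1158, 1293 and 1128. These groups overlap, and the 95% interval of the difference, -0.28 to 0.17, holds 0. Per kilobase, Bckdha was 272%, 294%, 228% and 252% of Bckdhb in the controls and 199%, 187%, 179% and 203% in the knockouts, so the ratio of the subunit transcripts was lower in each knockout. Exons of Bckdha overlap B3gnt8 on the other strand, over 1171 of the 1899 exonic bases, and without strand information reads of the pair cannot be told apart. B3gnt8 itself was listed at 148 ± 24.9 in controls and 161 ± 20.3 in knockouts.

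Dbt, the transacylase core, was 1466, 1567, 1610.4 and 1533 in the controls and 1684, 1333, 1142 and 1331 in the knockouts. Knockout 1 was again the high one, here above every control, and the other knockouts were below all controls (log2 fold change -0.18, adjusted p = 0.492). Dld, the lipoamide dehydrogenase that also serves the pyruvate and oxoglutarate complexes, was 5525, 5014, 3484 and 4035 against 3141, 4006, 4134 and 3009. Controls 1 and 2 were the high libraries for Dld, and controls 3 and 4 lay within the range of the knockouts (log2 fold change -0.33, adjusted p = 0.396). Summed, the subunits took 816 ± 96.9 reads per 1000000 in controls and 648 ± 31.0 in knockouts, 20.6% lower without overlap.

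For the switch of the complex, no difference was detected at the level of RNA. Bckdk, the inactivating kinase, was 1805, 1634, 1374 and 1357 in the controls and 1368, 1602, 1691 and 1389 in the knockouts, with a log2 fold change of -0.02 and a 95% interval of -0.28 to 0.23. Ppm1k, the activating phosphatase, was 356, 364, 375 and 312 against 415, 323, 257 and 386 (-0.05, interval -0.38 to 0.28). Both genes overlap fully between the genotypes. Per kilobase, Bckdk was 718 ± 93.8% of Ppm1k in controls and 752 ± 245% in knockouts, and knockout 3 combined the highest kinase with the lowest phosphatase of its group.

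The valine route held 3 of the 4 members that fell. Its first enzyme, Acad8, the isobutyryl-CoA dehydrogenase, did not pass: it was 886 to 1032 in the controls and 871 to 998 in the knockouts (log2 fold change -0.03, 95% interval -0.20 to 0.15). Echs1, the hydratase that follows, is shared with the isoleucine route and is described there. The 3 enzymes after Echs1, namely Hibch, Hibadh and Aldh6a1, were lower in every knockout than in any control. Hibch, which hydrolyses 3-hydroxyisobutyryl-CoA (chr1:52845038-52920986, plus strand), fell from 2522, 2982, 2249.9 and 2419.8 in the controls to 1806, 1731, 1799 and 1716 in the knockouts. The knockouts lay close together at 1763 ± 46.0 and all the controls above them at 2544 ± 313 (SD, n = 4 each; log2 fold change -0.52, SE 0.090, adjusted p = 0.0215). Hibadh, the next dehydrogenase, which makes methylmalonate semialdehyde (chr6:52546230-52640300, minus strand), fell from 3848, 4673, 3495 and 3875 to 2832, 2789, 2957 and 2704. Its groups lay apart in the same way (-0.49, SE 0.093, adjusted p = 0.0342), and the product of Hibch, free 3-hydroxyisobutyrate, is the substrate of Hibadh and can also leave the cell.

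Aldh6a1, which oxidises methylmalonate semialdehyde to propionyl-CoA (chr12:84430717-84451024, minus strand), had the lowest fold change of all members. Its scaled read counts were 8427, 10106, 9246 and 8538 in the controls and 7414, 5685, 4496 and 5180.3 in the knockouts. Knockout 1 was nearest to the controls and knockout 3 farthest from them, and the mean was 37.3% lower (log2 fold change -0.69, SE 0.145, limma adjusted p = 0.0495). The promoter of Aldh6a1 is the one of those shown above without a GC box. Bbof1 lies on the other strand over 1078 of its 5784 exonic bases and was itself lower, 337 ± 18.2 against 215 ± 61.0 (adjusted p = 0.106). The part of reads from Bbof1 in the values of Aldh6a1 was not tested.

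Abat rose. It encodes the transaminase of gamma-aminobutyrate, which also interconverts methylmalonate semialdehyde and 3-aminoisobutyrate (chr16:8513429-8621568, plus strand). Its scaled read counts were 73.7, 87.0, 145 and 132 in the controls and 266, 225, 202 and 339.5 in the knockouts. All knockouts were above all controls, and the mean was 2.36 times as high (log2 fold change 1.26, SE 0.239, adjusted p = 0.0328), with controls 1 and 2 again the lowest. Against Aldh6a1, which acts on the same semialdehyde, Abat per kilobase was 0.641%, 0.631%, 1.15% and 1.13% in the controls and 2.63%, 2.91%, 3.29% and 4.80% in the knockouts. The share was higher in each knockout, while Aldh6a1 stayed by far the more abundant. With the B cell score as a covariate the log2 fold change of Abat was 1.07 (adjusted p = 0.116), and without controls 1 and 2 it was 0.87 (0.174). With the brown adipocyte score it was 1.255 (0.00283) and with the respiratory chain score 1.065 (0.0275). With the muscle and mammary scores it was 1.103 (0.105) and 1.253 (0.0783). Summed, the 5 valine members took 1168 ± 106 reads per 1000000 in controls and 811 ± 92.9 in knockouts, 30.6% lower, more than any other role in the list. The largest part of that sum was Aldh6a1, at 9079 ± 775 scaled reads in controls and 5694 ± 1246 in knockouts (SD, n = 4 each). It also holds Acad8, with a log2 fold change of -0.03, and Abat, which rose.

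All 4 leucine genes had a lower mean in the knockouts, and none passed. Ivd, the isovaleryl-CoA dehydrogenase (chr2:118861959-118882909, plus strand), was 3925, 4666, 4042 and 4149 in the controls and 3604, 2562, 2254 and 2501 in the knockouts. As with Aldh6a1, knockout 1 was nearest to the controls, yet below each of them (log2 fold change -0.64, SE 0.137, adjusted p = 0.0539; 0.00395 without knockout 1 and 0.0677 to 0.178 without any other library). The biotin-dependent methylcrotonyl-CoA carboxylase has a biotin-carrying chain, Mccc1, and a carboxyl-transferring chain, Mccc2. Mccc1 was 2533, 3103, 2572 and 2585 against 2155, 2086, 2015 and 1737 (-0.43, SE 0.096, adjusted p = 0.0638). Mccc2 was 1432, 1568, 1398 and 1302 against 1213, 1224, 1297 and 1148 (-0.22, SE 0.078, adjusted p = 0.230), and knockout 3 came close to control 4. Both chains were lower in every knockout than in any control. Auh, the hydratase of the next step, was 630.2 to 956 in the controls and 615 to 763 in the knockouts, with overlapping groups (-0.15, adjusted p = 0.651). The leucine members together took 638 ± 56.2 reads per 1000000 against 470.2 ± 53.8, 26.3% lower without overlap.

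In the isoleucine route, Hsd17b10 fell. It encodes the mitochondrial dehydrogenase of 2-methyl-3-hydroxybutyryl-CoA, which is also a subunit of mitochondrial RNase P (chrX:152001896-152004442, plus strand). Its scaled read counts were 1473, 1608, 1499 and 1568 in the controls and 1134, 1049.8, 1315 and 1072 in the knockouts. The controls were close together and all above the knockouts, of which knockout 3 was the highest (log2 fold change -0.43, SE 0.085, limma adjusted p = 0.0384). With the skeletal muscle score as a covariate the fold change was -0.30 (adjusted p = 0.112). Acadsb, the dehydrogenase before it, was 2637, 3194, 2742 and 2657 in the controls and 2641, 2228, 1972 and 2220.2 in the knockouts. Knockout 1 passed the lowest control by a few reads, so the groups overlap (-0.31, adjusted p = 0.198). Echs1, shared by the valine and isoleucine routes, was 5385, 6390.1, 4737 and 5100.1 against 4124, 4306, 4577 and 3941, each knockout below each control (-0.34, SE 0.102, adjusted p = 0.153).

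**Figure D4:**
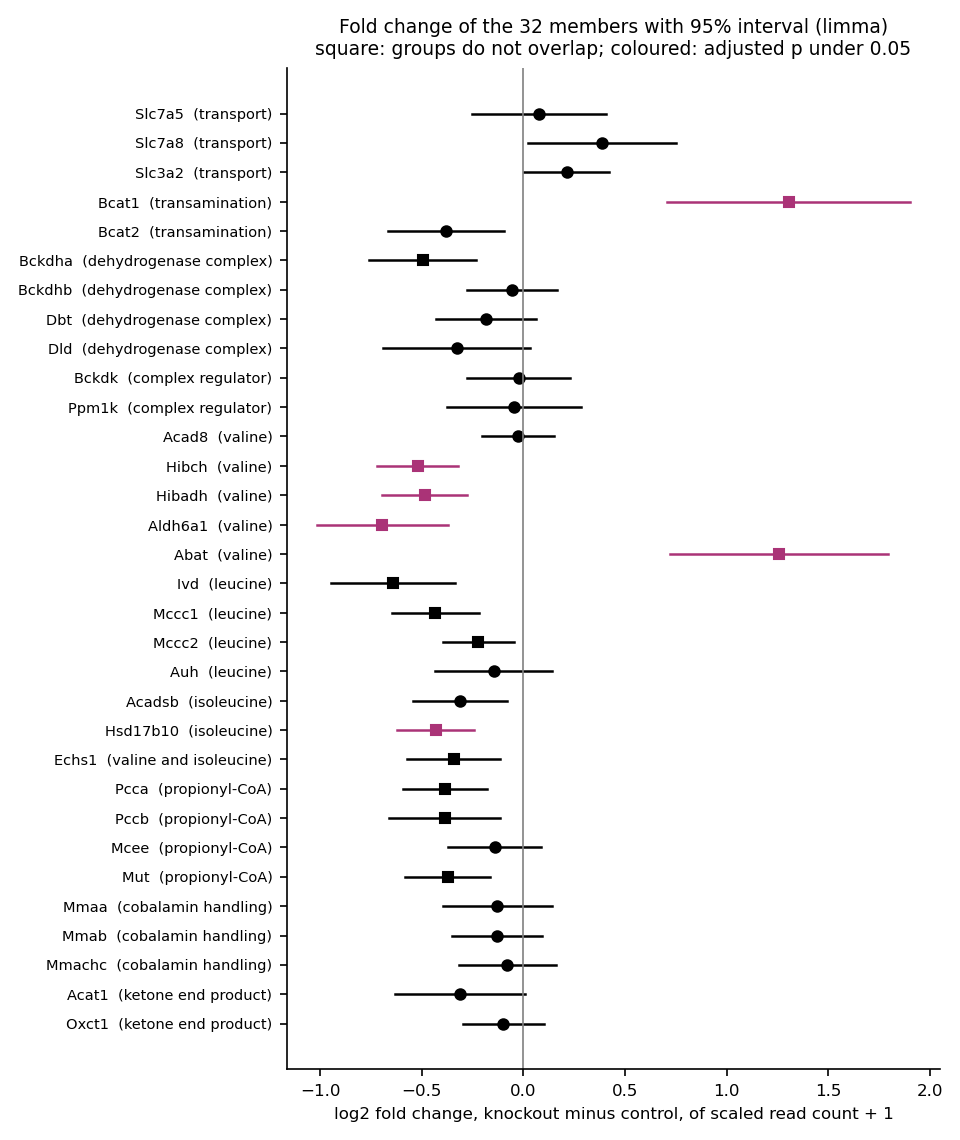
Log2 fold change of scaled read count + 1, knockout minus control, of the 32 members with its 95% interval from limma (x axis), ordered by role; squares mark members whose groups do not overlap, colour marks an adjusted p under 0.05. From the dehydrogenase complex to the propionyl-CoA enzymes, points lie to the left of 0 except Abat at 1.26; Bcat1 is at 1.31 and the transporters lie between 0.07 and 0.39.

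The enzymes that carry propionyl-CoA to succinyl-CoA all had lower means in the knockouts, with none past the threshold. Pcca and Pccb form the biotin-dependent propionyl-CoA carboxylase. Pcca was 1886, 2176, 1664 and 1741 in the controls and 1446, 1494, 1414 and 1327 in the knockouts (log2 fold change -0.39, SE 0.092, adjusted p = 0.0848). Pccb was 4001, 5191, 3394 and 3823 against 2887, 3277, 3254 and 2985 (-0.39, SE 0.123, adjusted p = 0.183). The ratio of the chains was alike in both genotypes. Per kilobase, Pcca was 41.1 ± 2.70% of Pccb in controls and 41.1 ± 2.62% in knockouts. Mut, listed in the files as Mmut, is the cobalamin-dependent methylmalonyl-CoA mutase and was 2443, 2377, 2010.0 and 2040.2 against 1902, 1728, 1559 and 1653 (-0.37, SE 0.094, adjusted p = 0.0997). In these 3 genes every knockout was below every control, and controls 1 and 2 were above controls 3 and 4. Mcee, the epimerase between the carboxylase and the mutase, overlapped between the groups (-0.14, adjusted p = 0.573).

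Cobalamin handling showed smaller differences. Mmaa, Mmab and Mmachc, which load, adenosylate and process the cofactor of Mut, had log2 fold changes of -0.13, -0.13 and -0.08, all with overlapping groups and adjusted p-values of 0.593 to 0.779. Together they took 106 ± 8.23 reads per 1000000 in controls and 98.7 ± 7.28 in knockouts. At the end of the leucine and isoleucine routes, Acat1, the mitochondrial thiolase, was 3945 to 5898 in the controls and 3209 to 4253 in the knockouts (-0.31, adjusted p = 0.361). Control 2 was the highest library for Acat1 and knockout 4 the lowest. Oxct1, which activates acetoacetate in ketone body use, was 2934 to 3204 in the controls and 2458 to 3237 in the knockouts (-0.10, adjusted p = 0.660).

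Among the members the libraries did not keep 1 order. Control 2 was the highest control for 19 of the 32 members, and control 3 the lowest for 13. In the knockouts, knockout 3 was the highest library for 16 members, among them Bcat1, Dld, Echs1 and Acat1, and the lowest for 9, among them Aldh6a1, Ivd, Acadsb and Dbt. Knockout 1 was the highest for 12, and for Slc7a8, Bcat2, Dbt, Aldh6a1 and Ivd it exceeded each other knockout by more than 20%. Knockouts 1 and 3 differed in the sum of muscle markers (222467 against 16068) and in that of respiratory chain genes (104234 against 135826), and the part of either in these orders was not tested. Hibch, Hibadh and Bckdha, in contrast, took nearly the same value in all 4 knockouts. In knockout 3, Hibch (1799), Hibadh (2957), Aldh6a1 (4496) and Hsd17b10 (1315) were below every control, as were 17 members in all, where 28.7% of all tested genes were. In the fit of knockout 3 alone against the controls the median log2 fold change of the members was -0.194. Controls 1 and 2 carry sample numbers (518 and 517) outside the run 356 to 361 of the other libraries. All knockouts were below controls 3 and 4 for 13 members, the 12 without overlap and Acadsb, where 9.03% of all tested genes met that rule.

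**Figure D5:**
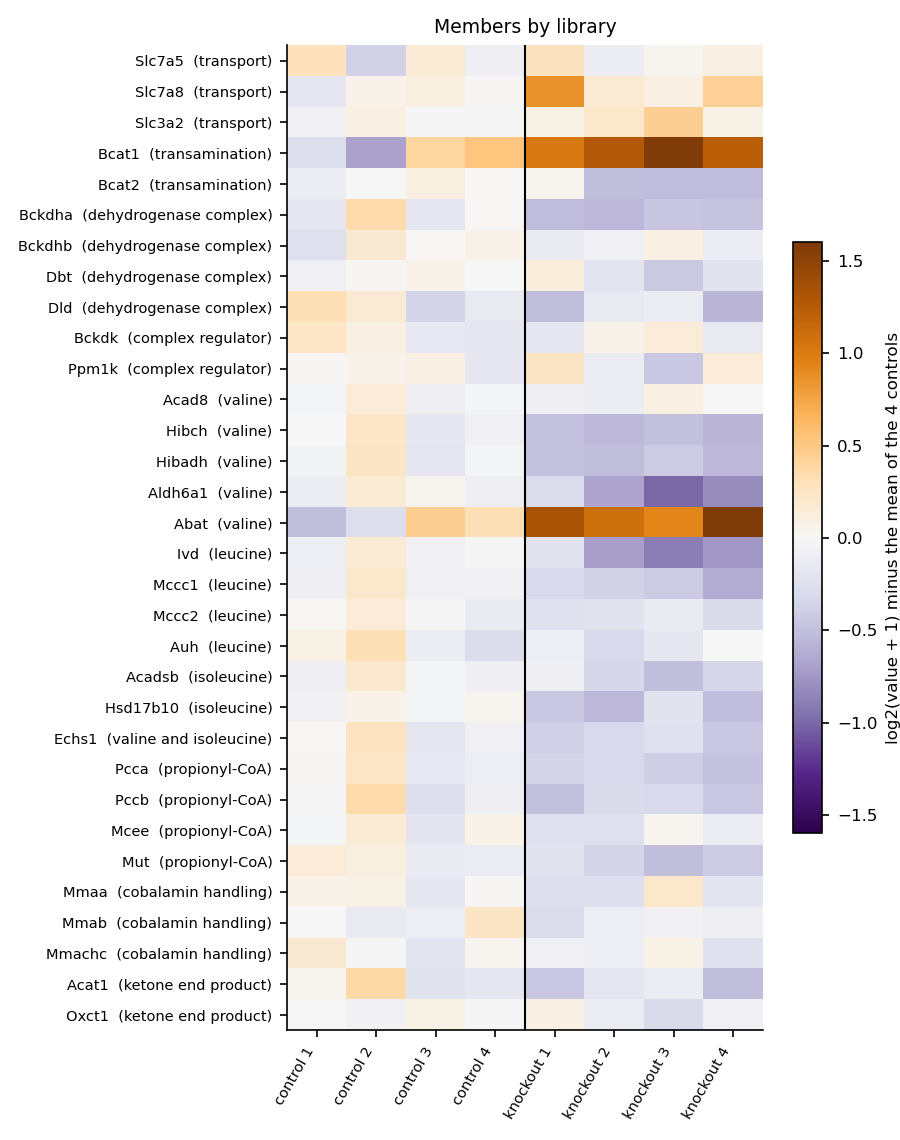
Difference of log2(scaled read count + 1) from the mean of the 4 controls for the 32 members (rows, by role) in the 8 libraries (columns; the line separates controls from knockouts), purple for lower and orange for higher. The knockout columns are mostly purple from Bckdha to Mut, Bcat1 and Abat are orange in all 4 knockouts, and the control 2 column is pale orange for most enzymes.

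A wider list of 48 genes that feed, share or regulate the pathway was looked at beside the members. Of these, 46 were tested (Slc6a15 and Agxt2 were too low), 29 were lower in the mean and the median log2 fold change was -0.08. Over all tested genes 45.4% were lower and the median was 0.02. In the list 1 gene passed as lower and 2 as higher, where 0.356% and 1.28% of all tested genes did. The groups lay apart for 8 as lower and 3 as higher, where 3.58% and 5.06% of all tested genes did. Aox1, an aldehyde oxidase, fell, from 1431 to 1691 in the controls to 616 to 1097 in the knockouts (-0.92, SE 0.154, limma adjusted p = 0.0186, but 0.00471 to 0.0761 without 1 library, past the threshold in 3 of 8 fits). The aspartate aminotransferases, which pass on the amino group collected as glutamate, rose: Got2, the mitochondrial form, was 507, 432, 540.1 and 484 in the controls and 1030.2, 1119, 1208 and 1109.9 in the knockouts (1.19, SE 0.089, adjusted p = 0.000327). Got1, the cytosolic form, was 333, 310.1, 332 and 299 against 482, 583, 579 and 578 (0.80, SE 0.091, adjusted p = 0.00246). Both were higher in every knockout than in any control, with little spread inside a group, and both passed in all 8 fits without 1 library. With the general adipocyte score as a covariate neither passed (adjusted p = 0.206 for Got1 and 0.124 for Got2), and neither did any other tested gene. That score itself separated the genotypes. The alanine aminotransferase Gpt2, which passes amino groups to pyruvate, was 2861, 2926, 2751 and 2999 against 2417, 1511, 1069.6 and 1402, lower in each knockout without passing (-0.91, SE 0.201, adjusted p = 0.0625).

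Groups also lay apart, lower in the knockouts and not past the threshold, for Slc43a1 (a leucine transporter), Ehhadh (a peroxisomal hydratase and dehydrogenase), Aldh2, Aldh9a1, Etfa (which takes electrons from the acyl-CoA dehydrogenases) and Sesn2 (a leucine sensor), and higher for Aldh7a1. Ehhadh was 1466, 1706, 779.5 and 665 in the controls and 549.7, 542, 349 and 449 in the knockouts (-1.20, SE 0.294, adjusted p = 0.0935), with controls 1 and 2 far above controls 3 and 4. Slc25a44, the mitochondrial carrier of branched-chain amino acids known from brown fat, was 1639 to 2271 in the controls and 1638 to 2175 in the knockouts (-0.13, adjusted p = 0.687). Klf15, a transcription factor that raises amino acid breakdown genes, was 839 to 1362 against 753 to 1027 (-0.31, adjusted p = 0.400). Neither of these separated the genotypes.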

How the data were processed

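RNA of inguinal fat was sequenced in 4 control and 4 knockout libraries. Reads were aligned to mm10 with TopHat version 2 and counted with HOMER, and edgeR and DESeq 1.8.3 were used for calls, per the submitters' processing notes and the series' design text. For the annotation, the strandedness and the scaling: not given in the sources used here. The authors deposited a signal: whole read counts multiplied by 1 factor per library (step 0.442 to 0.545, 100% of values whole within 0.02 of a step). Even multiples were 54.0 to 56.2% of low values, so a step may be 1 end of a pair, and counting error is then larger. Of 23373 rows, 1 had no accession. Symbols came from RefSeq GRCm38.p6 (22523) and GENCODE M21 (128), 721 were unmatched (1.64% of reads), and of 12 symbols with 2 rows the higher was kept. Lengths, strands and exon overlaps are those of GENCODE M21 on the same base assembly, and gene coordinates are those of RefSeq.

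The main test was limma 3.58.1 (mean-variance trend, genotype only) on log2(value + 1) of 14591 genes that reached a value of 10 in 4 or more libraries, with Benjamini-Hochberg adjustment over all of them and a threshold of 0.05. Fold changes are on that scale, and understate the change of low genes. Alternatives were edgeR 4.0.16 (218 genes called), DESeq2 1.42.0 and limma-voom on recovered reads, other scalings, filters and pseudocounts, marker score covariates (the mean log2 level of a list) and leaving out libraries. R was 4.3.3 and Python 3.11.15. The fit was checked on simulated data. The members, lists and tests were chosen with earlier results of these data known. The named genes are all 32 members, and of the wider list those past the threshold or with groups apart, plus Slc25a44 and Klf15. Replicates were numbered in accession order. Between replicates chi-square divided by its degrees of freedom was 26.6 to 143, so none was counted as a duplicate. Protein features of the members were planned and were not analysed here.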

Additional observations from a re-analysis of the deposited data

Results flagged for a closer look

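In 66 groups of 4 libraries, those of the 32 members and of Kdm1a in each genotype, the gap between the most distant library and its nearest neighbour was compared with the range of the group. Chance takes this share past Dixon's 95% critical value for 4 samples in about 1 of 20 groups, and 3 groups exceeded it. Bcat2 in knockout 1 was at 4639.77, against 3186.82 in the next library and 3164.31 in the lowest, a gap of 0.985 of the range. Mccc1 in control 2 was at 3103.4, against 2584.86 and 2533.1 (0.909). Mmaa in knockout 3 was at 486.57, against 363.96 and 351.2 (0.906).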

How the results depend on the processing

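Over 28 alternatives, member fold changes kept their direction and their side of the threshold in 757 of 896 refits. With the same direction, a call was lost in 81 and newly made in 16. The sign changed in 42, in none of which the member passed. The 81 lost calls all fell on the 6 members called in the main fit. Of 28 refits each, Aldh6a1 and Hibadh lost their call in 16, Hsd17b10 in 15, Bcat1 in 13, Abat in 12 and Hibch in 9. Genes called, 239, became 776 with DESeq2, 118 with the B cell score, 97 without controls 1 and 2, 19 for knockout 3 alone, 0 with the general adipocyte score (2017 at an unadjusted p under 0.05) and 87 to 449 without 1 library. Members called lower, 4, became 10 with DESeq2, 7 with the brown score and 2 with the muscle score. They became 1 with edgeR, limma-voom or the B cell score, and 0 to 4 without 1 library. Without controls 1 and 2 or with the adipocyte score they became 0. At an unadjusted p under 0.05 these fits had 10 and 2 members lower, beside 1233 and 2017 tested genes in either direction. Members called higher, 2, became 1 without a filter, with edgeR or with the muscle, B cell or respiratory score, and 0 to 2 without 1 library. Without controls 1 and 2, or with the mammary or adipocyte score, they became 0. Unadjusted, these fits had 2, 3 and 1 members higher, beside 1233, 2078 and 2017 tested genes in either direction. The member median, -0.202, was -0.081 with the adipocyte score. Kdm1a missed the threshold at -0.358 with a pseudocount of 0.5, no filter or a filter of 50, at -0.346 with library totals, -0.432 without controls 1 and 2, -0.397, -0.412, -0.369 and -0.490 with the muscle, B cell, mammary and adipocyte scores, -0.411 for knockout 3 alone and -0.387 to -0.313 without 1 library. The general adipocyte score itself separated the genotypes, so its fit can hardly tell genotype from adipocyte level. The cause of these changes was not tested.

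Sign changes with the adipocyte score were Slc7a5 (-0.515), Bckdha (0.053), Bckdhb (0.316), Bckdk (0.073), Acad8 (0.225), Auh (0.177), Echs1 (0.011), Pccb (0.106), Mcee (0.197), Mmaa (0.14) and Acat1 (0.186). With the muscle score they were Bckdhb (0.045), Bckdk (0.055), Acad8 (0.048), Mmaa (0.098) and Mmachc (0.044), with the B cell score Bckdk (0.038), Ppm1k (0.022), Acad8 (0.019) and Auh (0.010), with the mammary score Bckdk (0.015) and Acad8 (0.012), and with the respiratory score Slc7a5 (-0.010), Bckdk (0.063) and Acad8 (0.021). Without controls 1 and 2 they were Bckdk (0.141), Acad8 (0.029) and Auh (0.051), and for knockout 3 alone Bckdhb (0.091), Bckdk (0.143), Acad8 (0.094), Mcee (0.028), Mmaa (0.208) and Mmachc (0.085). Without 1 library, Slc7a5 ranged from -0.046 to 0.169, Bckdhb from -0.136 to 0.006, Bckdk from -0.082 to 0.055, Ppm1k from -0.142 to 0.088 and Acad8 from -0.066 to 0.021.

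No paired analysis was possible because the labels give no replicate number shared between the genotypes. The adipocyte and respiratory scores and the fit of knockout 3 alone, in which that library is assumed to vary like the controls, were chosen after seeing the data. The standard error of the log2 fold change was largest for Bcat1 (0.267) and Abat (0.239), both low members.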
